A study of Mus musculus with 4 samples.

Results

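This report describes 10 genes of MHC class I antigen presentation in single cells of mouse cortex: the heavy chains *H2-D1* and *H2-K1*, the light chain *B2m*, the peptide transporter and loading genes *Tap1*, *Tap2* and *Tapbp*, the immunoproteasome subunits *Psmb8* and *Psmb9*, and the proteasome activator subunits *Psme1* and *Psme2*. They were chosen by name as the core of the pathway, with earlier results of these data known. They are 10 of the 27487 genes listed in the deposited count tables. The cells came from Tg2576 mice, heterozygous for a human amyloid precursor protein transgene with the Swedish mutation on a B6;SJL background, and from wild-type littermates. All mice were 24 weeks old and were perfused with buffer before the cortex was dissected by hand. Cortex was dissociated with an adult brain kit, and single cells were profiled by Drop-seq, a droplet method that counts unique molecular identifiers (UMIs) near the 3′ end of polyadenylated RNA. There were 4 libraries (female wild-type, female Tg2576, male wild-type and male Tg2576), each a single pool of 9 mice, so that 36 mice gave 1 library per sex and genotype, and the mice within a pool could not be told apart here.

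MHC class I molecules show peptides from inside the cell to CD8+ T cells. Proteasomes cut the proteins, the TAP transporter carries the peptides into the endoplasmic reticulum, and tapasin helps to load them onto a heavy chain paired with beta-2 microglobulin. Interferons induce most of these genes, and in healthy brain vascular cells and microglia are known to express class I at higher levels than neurons and oligodendrocytes.

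In RefSeq's GRCm38.p6, the assembly that the build mm10 of the submitters' processing notes stands for, 7 of the 10 genes lie on chromosome 17 in the MHC region, *Psme1* and *Psme2* on chromosome 14 and *B2m* on chromosome 2. RefSeq promoter windows of 300 bases, from 250 before to 50 after the annotated start, matched 9 of the 10 genes by symbol (11 windows); *Tap2* had no entry. The windows of the 4 genes on which most results turn are shown because matches to the 5 motifs below were arranged alike in the heavy chains and otherwise in *B2m*. Only exact matches were sought, so a window without a mark may still hold another form of a site, such as of kappa B. Capitals mark matches on either strand to 5 motifs: a long interferon motif, which is GAAA repeated after any 2 bases, and the short form GAANNGAAA, both of the kind bound by interferon regulatory factors, TTCNNNGAA, of the kind bound by STAT proteins, the kappa B sequence GGGATTCCC, and TGACG, the core of the X2 box.
H2-D1, chr17:35262844-35263143, plus strand: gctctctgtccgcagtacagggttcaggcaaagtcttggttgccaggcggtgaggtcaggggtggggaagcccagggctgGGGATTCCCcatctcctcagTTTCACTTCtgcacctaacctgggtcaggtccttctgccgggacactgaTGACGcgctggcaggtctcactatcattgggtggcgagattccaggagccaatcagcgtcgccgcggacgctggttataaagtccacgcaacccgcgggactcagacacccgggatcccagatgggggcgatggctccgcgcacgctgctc
H2-K1, chr17:34000298-34000597, minus strand: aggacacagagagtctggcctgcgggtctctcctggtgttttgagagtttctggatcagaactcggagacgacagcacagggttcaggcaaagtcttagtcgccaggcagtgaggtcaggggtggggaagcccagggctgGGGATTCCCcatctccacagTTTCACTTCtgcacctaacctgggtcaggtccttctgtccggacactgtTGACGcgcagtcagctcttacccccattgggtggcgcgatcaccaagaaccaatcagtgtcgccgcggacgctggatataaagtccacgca
B2m, chr2:122147437-122147736, plus strand: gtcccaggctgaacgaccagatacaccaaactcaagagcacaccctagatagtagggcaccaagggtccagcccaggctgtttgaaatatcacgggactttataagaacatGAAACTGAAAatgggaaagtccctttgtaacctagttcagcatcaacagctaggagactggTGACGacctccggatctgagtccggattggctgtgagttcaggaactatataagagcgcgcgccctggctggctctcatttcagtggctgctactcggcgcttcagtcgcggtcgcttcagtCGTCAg
Psmb9, chr17:34187281-34187580, minus strand: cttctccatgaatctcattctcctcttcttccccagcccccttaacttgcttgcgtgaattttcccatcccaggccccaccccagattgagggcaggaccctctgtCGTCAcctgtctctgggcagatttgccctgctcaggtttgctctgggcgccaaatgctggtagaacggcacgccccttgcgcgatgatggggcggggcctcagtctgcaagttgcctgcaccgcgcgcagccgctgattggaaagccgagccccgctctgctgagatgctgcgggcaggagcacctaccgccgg
In both heavy chain windows a GAANNGAAA match on the opposite strand began 20 bases after the first base of the kappa B match, and TGACG began another 49 bases on, and the aligned windows were identical at 211 of 239 bases (88.3%). Counted from the annotated start, the GAANNGAAA match began at -150 in *H2-D1* and at -90 in *H2-K1*. *B2m* held the long interferon motif at -139 and TGACG at -78 and 45. *Psmb9* held TGACG at -144, and its window shares 275 bases, this site included, with that of *Tap1*, which is read in the other direction from a start 226 bases away. Among the other windows *Psmb8* held TTCNNNGAA, *Psme1* held overlapping matches to the long and short interferon motifs, *Psme2* held TGACG, and *Tapbp* held none of the 5. Of all 32851 promoter windows of this length, 3.44% held the long interferon motif, 7.52% GAANNGAAA, 8.30% TTCNNNGAA, 0.353% GGGATTCCC and 20.8% TGACG.

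The libraries were of like depth: 1010 to 1532 cells per library passed the filters (4835 in all), with 1593675 to 1758582 UMIs per library and a median of 909 to 1331.5 UMIs per cell, and 4 or 5 kept barcodes of each library also occurred in another. *App* was at 1575 and 1567 CPM (UMIs per 1000000 UMIs of the cells concerned) in the Tg2576 libraries and at 889 and 1178 in the wild-type ones, and *Xist* and *Ddx3y* followed the labelled sexes. Cell types were named from marker genes after clustering without the 10 genes and without their pathway lists, and 6 types had at least 20 cells in every library: microglia, endothelial cells, astrocytes, oligodendrocytes, mural cells, and neuroblasts or progenitors. In the kept cells *B2m* had 9130 UMIs, *H2-D1* 2852, *H2-K1* 2262 and the other 7 genes 108 to 843 each. Microglia and endothelial cells together gave 70.2% to 90.3% of each gene's UMIs.

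Among the 6 tested types both heavy chains, which bind the peptide, had their highest mean in endothelial cells. Per-library values are given in the order female wild-type, female Tg2576, male wild-type, male Tg2576. *H2-D1* in endothelial cells was at 686, 1380, 1301 and 970 CPM. In microglia *H2-D1* was at 378, 334, 525 and 513 CPM in the same order. Each endothelial library was above each microglial one, and all microglial values were above those of neuroblasts or progenitors (59.8 ± 48.1 CPM, SD over 4 libraries), oligodendrocytes (50.4 ± 33.1) and astrocytes (38.3 ± 16.4). Mural cells, the pericytes and smooth muscle cells of vessels, had 693 ± 261 CPM (lowest 316 in the female Tg2576 library, from 40 cells), a range that overlapped with both endothelial cells and microglia.

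*H2-K1* in endothelial cells was at 316, 791, 730 and 505 CPM, lowest in wild-type females and highest in Tg2576 females. In microglia *H2-K1* was at 366, 374, 571 and 551 CPM, so that the endothelial (585 ± 218) and microglial (465 ± 111) ranges overlapped, as did that of mural cells (393 ± 170). Astrocytes stood apart below these 3 types at 106 ± 29.1 CPM, followed by neuroblasts or progenitors (52.2 ± 52.2) and oligodendrocytes (35.4 ± 14.5), whose ranges overlapped with their neighbours in this order.

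*B2m*, the light chain without which class I does not reach the surface, was the only gene of the 10 with its highest mean, over these 6 types, in microglia, at 1794, 2403, 2610 and 2868 CPM in the same library order. In endothelial cells *B2m* was at 1093, 2640, 2244 and 1494 CPM, a wider spread that overlapped with the microglial one. Mural cells followed at 1040 ± 383 CPM and stood apart from neuroblasts or progenitors (305 ± 220), astrocytes (177 ± 49.95) and oligodendrocytes (92.8 ± 50.5). Barcodes with under 200 genes, taken as a measure of free RNA, held 718 ± 135 CPM of *B2m* and 115 ± 10.1 of *H2-D1*, above the levels in neuroblasts or progenitors, astrocytes and oligodendrocytes, so those levels cannot be told apart from background. After thinning to 500 UMIs per cell, 57.1% to 73.3% of microglia and 38.5% to 56.2% of endothelial cells had a *B2m* UMI, against 2.35% to 5.26% of oligodendrocytes. Before thinning these shares were 83.2% to 90.5%, 56.0% to 71.2% and 8.43% to 13.0%, at median depths of 1030 to 1403, 733 to 1159 and 1384 to 1853 UMIs. *H2-D1* gave 12.8% to 19.8% in microglia, 27.4% to 43.4% in endothelial cells and 0% to 3.95% in oligodendrocytes after thinning, and 26.6% to 43.1%, 42.7% to 61.1% and 1.205% to 10.4% before. The 0% was 0 of 78 cells, which allows a share of up to 3.85% by the limit of 3 cells and 4.62% by the exact Clopper-Pearson interval.

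**Figure D1:**
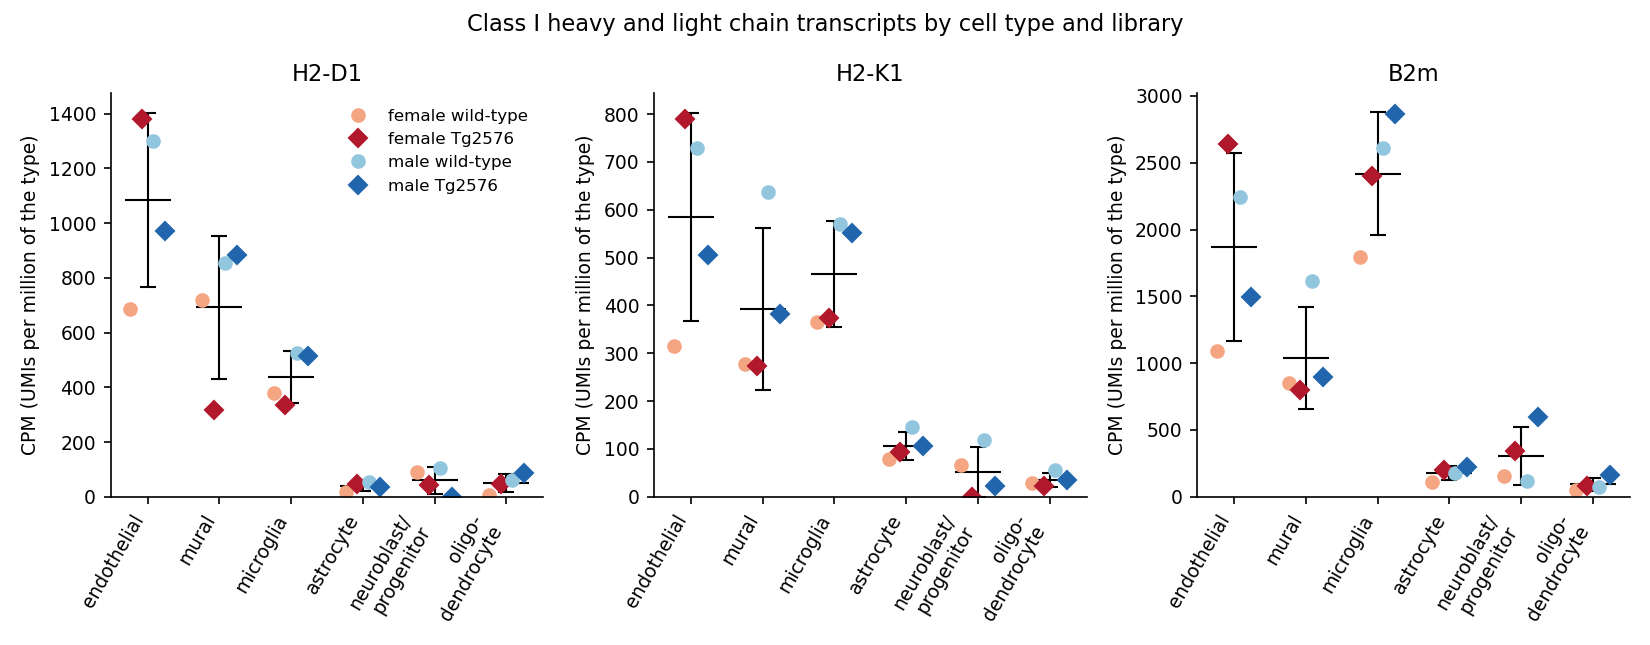
Level of *H2-D1*, *H2-K1* and *B2m* by cell type: each point is the CPM of a library (y axis, linear), horizontal lines mark the mean of the 4 libraries and bars the SD. All 3 genes were higher in endothelial cells, mural cells and microglia than in astrocytes, neuroblasts or progenitors and oligodendrocytes.

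*Tap1* and *Tap2* form the peptide transporter, and both were sparse. *Tap1* had 3, 16, 18 and 11 UMIs in the endothelial cells of the female wild-type, female Tg2576, male wild-type and male Tg2576 libraries (36.2 ± 20.1 CPM) and 17.6 ± 6.76 CPM in microglia, with overlapping ranges down the whole order of types. *Tap2* was at 55.2, 82.2, 135 and 79.1 CPM in endothelial cells and at 46.3, 48.0, 65.7 and 49.96 CPM in microglia. *Tapbp*, which encodes tapasin, was at 134, 196, 166 and 116 CPM in endothelial cells, and in microglia it ran from 135 to 143 CPM, an SD of 3.79 CPM. Astrocytes came below endothelial cells, mural cells and microglia for both *Tap2* (39.7 ± 20.8 CPM) and *Tapbp* (36.4 ± 20.4), and every pair of neighbours in these 2 orders overlapped. Barcodes with under 200 genes held 28.8 ± 10.9 CPM of *Tap2* and 53.5 ± 22.7 of *Tapbp*, so these astrocyte levels cannot be told apart from background.

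*Psmb8* and *Psmb9* encode catalytic subunits that replace *Psmb5* and *Psmb6* in the immunoproteasome. *Psmb8* was at 82.8, 181, 189 and 100 CPM in endothelial cells and at 116, 144, 150 and 132 CPM in microglia, while astrocytes (6.81 ± 9.42) and oligodendrocytes (5.76 ± 6.66) held 6 and 4 UMIs over the 4 libraries. *Psmb9* was at 51.3, 184, 128 and 70.0 CPM in endothelial cells and at 29.9, 27.4, 37.5 and 46.6 CPM in microglia. The endothelial and mural (87.3 ± 27.9) values of *Psmb9* all lay above the microglial ones, and in astrocytes 1 UMI of *Psmb9* was counted in 922 cells. *Psme1* and *Psme2*, which encode the alpha and beta subunits of the proteasome activator, were found in all 6 tested types. Over these types *Psme1* ran from 201 ± 39.1 CPM in endothelial cells to 22.3 ± 14.0 in oligodendrocytes, and *Psme2* from 123 ± 24.9 in endothelial cells to 32.6 ± 15.7 in astrocytes. Barcodes with under 200 genes held 60.6 ± 27.9 CPM of *Psme1* and 37.8 ± 13.2 of *Psme2*, so the lowest of these levels cannot be told apart from background. In the 98 neurons of all libraries *Tap1*, *Tapbp*, *Psmb8* and *Psmb9* had 0 UMIs and *B2m* 4, and the 32 cells named macrophages had 111 *B2m* UMIs (1532, 2082, 3451 and 4643 CPM). The genes leading that cluster were macrophage markers such as *Mrc1* and *Pf4*, but also the neutrophil genes *S100a8*, *S100a9*, *Ngp* and *Camp*. Oligodendrocyte precursors (101 cells), choroid plexus cells (108) and ependymal cells (25) were sparse, with 24, 58 and 5 *B2m* UMIs in all. A group of 50 cells that no marker list named, led by *Ms4a4b*, *Ogn* and the class II pathway genes *H2-Ab1* and *Cd74*, held *H2-K1* at 1432, 709, 1338 and 445 CPM from 6 to 10 UMIs per library, and *B2m* at 636, 1216, 1338 and 1410 CPM.

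The genes were higher in microglia and in endothelial cells than in astrocytes and oligodendrocytes, which was tested with edgeR's quasi-likelihood test on UMIs summed per library and cell type, with the library as a block and Benjamini-Hochberg adjustment over all genes. Against the mean of astrocytes and oligodendrocytes, all 9 genes that passed the filter on low counts were higher in microglia, where 32.5% of all 7056 genes tested were called higher. Their median log2 fold change was 2.93 against -0.01 over all genes. *Psmb8* led with 4.49 ± 0.34 (SE, adjusted p = 2.11e-29), though it had 6 UMIs in astrocytes and 4 in oligodendrocytes, so its size rests on few counts. *B2m* followed with 4.25 ± 0.17 (adjusted p = 2.32e-69), and *Psme2* was last with 1.10 ± 0.25 (adjusted p = 3.05e-05). In endothelial cells the same 9 genes were called higher against a background of 27.3% of all genes, with a median of 3.04 against 0.00. *Psmb9* led with 5.14 ± 0.47 (adjusted p = 3.83e-22), though it had 1 UMI in astrocytes and 3 in oligodendrocytes, then *H2-D1* with 4.42 ± 0.19 (adjusted p = 4.23e-64), and *Psme2* was again last with 1.53 ± 0.25 (adjusted p = 1.48e-08). *Tap1* did not pass the filter, and without the filter 10 of 10 genes were called in both contrasts.

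Between endothelial cells and microglia 2 of the 9 genes tested were called higher and 1 lower, shares no larger than those over all genes. *H2-D1* (log2 fold change 1.10 ± 0.15, adjusted p = 5.82e-11) and *Psmb9* (1.34 ± 0.28, adjusted p = 7.10e-06) were higher in endothelial cells and *B2m* was lower (-0.61 ± 0.16, adjusted p = 0.000665) by edgeR, where 26.2% of all genes were called higher and 26.2% lower. The *B2m* call was lost with DESeq2 (adjusted p = 0.0855) and without the library term (adjusted p = 0.0735). The remaining 6 genes tested were not called, among them *H2-K1* at 0.11 ± 0.15 (adjusted p = 0.579), *Psmb8* at -0.22 ± 0.21 (adjusted p = 0.391) and *Tapbp* at -0.11 ± 0.19 (adjusted p = 0.661). The endothelial library sums held the summed endothelial marker list at 26216 to 30680 CPM, the microglial list at 556 to 679 CPM and all 9 measured T or NK cell markers at 0. In the female wild-type library they also held 10135 CPM of erythrocyte genes, against 0 to 17 in the others, from globin UMIs in 13 of its 150 endothelial cells; the part of these in the results was not tested.

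**Figure D2:**
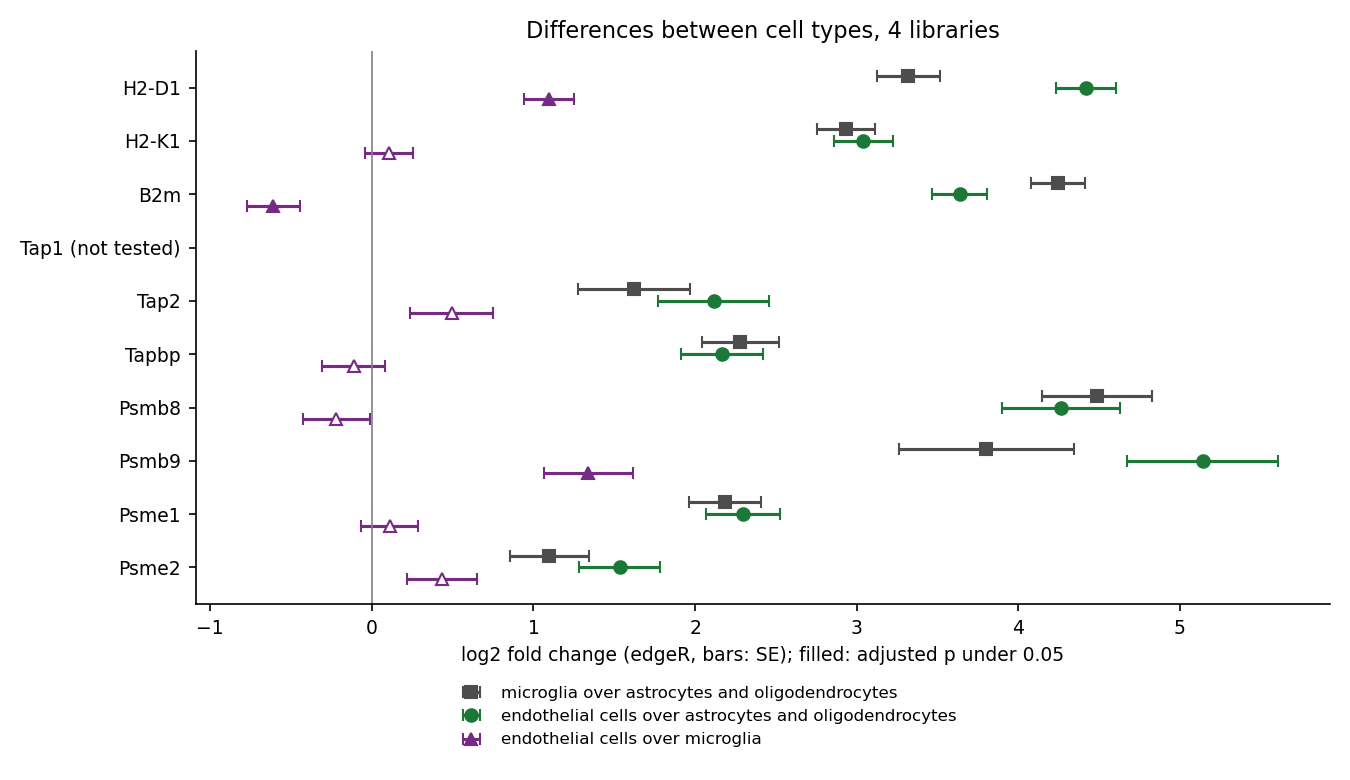
Log2 fold change (x axis) with its standard error (edgeR, filled where the adjusted p was under 0.05) for each gene in the contrasts of microglia and of endothelial cells against astrocytes and oligodendrocytes, and of endothelial cells against microglia. All tested genes lay above 0 in the first 2 contrasts, and *H2-D1*, *Psmb9* and *B2m* were called in the last.

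Other genes of the pathway were taken from lists compiled for this tissue, and their counts stand beside the shares over all genes given above (32.5% higher in microglia and 27.3% in endothelial cells than in astrocytes and oligodendrocytes, 26.2% in each direction between the 2). Of the 8 other class I heavy chain genes tested (16 listed), 7 were higher in microglia than in astrocytes and oligodendrocytes and 6 in endothelial cells, where *H2-T3* was lower. *H2-T23*, a nonclassical class I gene, was at 162, 346, 301 and 134 CPM in endothelial cells and 136, 165, 126 and 193 in microglia, and differed from astrocytes and oligodendrocytes by 6.89 ± 0.42 and 6.53 ± 0.43 on the log2 scale (adjusted p = 3.32e-39 and 1.59e-35, edgeR). The listed chaperones of the endoplasmic reticulum *Calr* and *Hspa5* went the other way between the 2 types. *Calr*, which encodes calreticulin, was 1.36 lower on the log2 scale in endothelial cells than in microglia (SE 0.16, adjusted p = 3.58e-15) and *Hspa5* 1.92 lower (SE 0.16, adjusted p = 9.64e-25), and 6 of the 10 listed loading and trimming genes tested were lower there and 1 higher. The constitutive proteasome subunits *Psmb5*, *Psmb6* and *Psmb7* were lower in microglia than in astrocytes and oligodendrocytes (-0.74, -0.94 and -1.05), in contrast to *Psmb8* and *Psmb9*. Among transcriptional regulators, 13 of 15 tested were higher in microglia and 10 of 15 in endothelial cells. *Irf8*, a myeloid interferon regulatory factor, was at 454 ± 42.7 CPM in microglia and 7.76 ± 5.68 in endothelial cells. Of the 18 listed interferon-induced genes outside the pathway, 13 passed the filter on low counts. All 13 were higher in endothelial cells than in microglia, for example *Ifitm3* by 5.24 ± 0.21 (edgeR adjusted p = 4.41e-67). In fits of 1 type alone, 17 of the 18 passed the filter in endothelial cells and 7 in microglia. Genes could thus enter through their endothelial counts, so the count of 13 was partly set by the filter.

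Because UMI totals differ between genes for technical reasons, ratios between genes were compared across types within each library. The ratio of *H2-D1* to *H2-K1* UMIs was 2.17, 1.75, 1.78 and 1.92 in endothelial cells of the 4 libraries. It was 1.03, 0.894, 0.921 and 0.931 in microglia and 0.200, 0.500, 0.364 and 0.353 in astrocytes. The astrocyte ratios rest on 5, 9, 16 and 12 *H2-D1* UMIs, a level that could not be told apart from background. The order endothelial over microglial over astrocytic held in 4 of 4 libraries (exact paired permutation test, two-sided p = 0.125 for each step, the smallest p that 4 libraries allow). The *B2m* to *H2-D1* ratio was 4.75 to 7.18 in microglia and 1.54 to 1.91 in endothelial cells, again without overlap (exact permutation p = 0.125). The *Psmb8* to *Psmb5* ratio was 4.03 ± 0.973 in microglia, 2.84 ± 0.910 in endothelial cells and 0.104 ± 0.138 in astrocytes. The exact permutation p was 0.125 in each of the 5 comparisons of ratios made, before and after Benjamini-Hochberg adjustment. *H2-D1*, *H2-K1* and the *H2-Q* genes are near-identical paralogs, and the B6;SJL background can carry other alleles than the reference, so reads could be split or lost among them; how far was not tested.

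**Figure D3:**
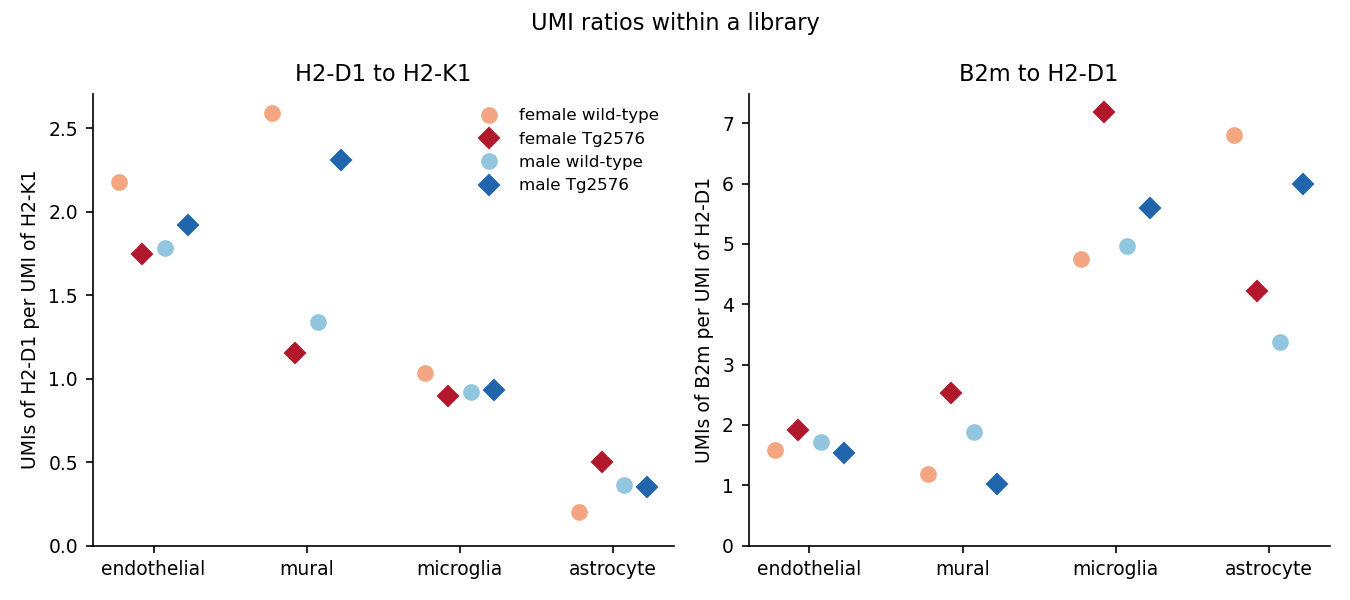
Ratios of UMIs of *H2-D1* to *H2-K1* and of *B2m* to *H2-D1* by cell type (y axis, UMIs per UMI, linear), with a point per library. Endothelial and microglial points do not overlap in either panel.

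To ask whether genotype changed these genes in both sexes alike, the 4 libraries were fitted with genotype and sex (edgeR, 1 residual degree of freedom). The test called 0 of the 10 genes in every cell type, and so did DESeq2. The members tested and those with an unadjusted p under 0.05 numbered 7 and 1 in astrocytes, 10 and 0 in endothelial cells, 9 and 0 in microglia, 3 and 0 in mural cells, 1 and 1 in neuroblasts or progenitors, 2 and 1 in oligodendrocytes and 10 and 0 in all kept cells. Few genes of any kind were called: 0.113% in astrocytes, 0% in endothelial cells, 0.294% in microglia, 0.345% in mural cells, 0% in neuroblasts or progenitors, 0.324% in oligodendrocytes and 0.832% in all kept cells. *B2m* in microglia was at 0.23 ± 0.13 (log2 fold change, edgeR adjusted p = 0.641). Over all kept cells 3 of the 18 listed interferon-induced genes were called higher in Tg2576 by edgeR. They were *Gbp2* (0.81 ± 0.22, adjusted p = 0.0350), *Ifitm3* (0.61 ± 0.17, adjusted p = 0.0372) and *Igtp* (1.00 ± 0.28, adjusted p = 0.0449). In endothelial cells 0 of the 17 tested were called. Genes of any kind called higher over all kept cells numbered 47, against 6 with DESeq2, 2 at a mitochondrial limit of 10% and 0 at 5%. Levels over all kept cells mix the cell types, of which endothelial cells made up 14.4%, 24.3%, 19.6% and 20.2% in the usual order, so that fewer cells of a type and less RNA per cell cannot be told apart there.

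Within each sex the genotypes were compared as log2 ratios of CPM with exact 95% intervals for counting error, since 1 library per group allows no test. In endothelial cells the sexes went opposite ways. *H2-D1* was 1.01 higher in Tg2576 females than in wild-type females (95% interval 0.76 to 1.26) and in males the ratio was -0.42 (-0.64 to -0.21). *H2-K1* gave 1.32 (0.97 to 1.70) in females and -0.53 (-0.83 to -0.23) in males. *B2m* gave 1.27 (1.08 to 1.47) and -0.59 (-0.76 to -0.42). Among the proteasome genes, *Psmb9* gave 1.84 (0.98 to 2.81) in females and -0.88 (-1.69 to -0.09) in males, and *Psmb8* 1.13 (0.42 to 1.90) and -0.91 (-1.58 to -0.27). For all 5 genes the female wild-type library was the lowest of the 4, and the female Tg2576 and male wild-type libraries were the 2 highest.

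All 10 genes were above wild-type in females, with a median of 1.07 against 0.03 over all genes, and 7 were at least 1.5-fold higher, a size that 19.7% of all 7819 genes measured reached. In males 9 of 10 were below wild-type, with a median of -0.56 against 0.08, and 5 were at least 1.5-fold lower, against 14.4% of genes. The pattern of higher in females and lower in males was met by 9 of 10 genes and by 22.3% of all genes, the exception being *Psme1* (0.69 and 0.08). *Tap1* rested on 3 UMIs in the female wild-type library, and its intervals covered 0 in both sexes. The other class I heavy chains had medians of 1.13 and -1.08, and the 18 interferon-induced genes 0.67 and -0.61, with 14 of 18 above wild-type in females and below in males. The loading and trimming genes (0.26 and -0.02), the other proteasome subunits (0.13 and -0.04) and the regulators (0.09 and -0.06) had medians nearer 0.

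**Figure D4:**
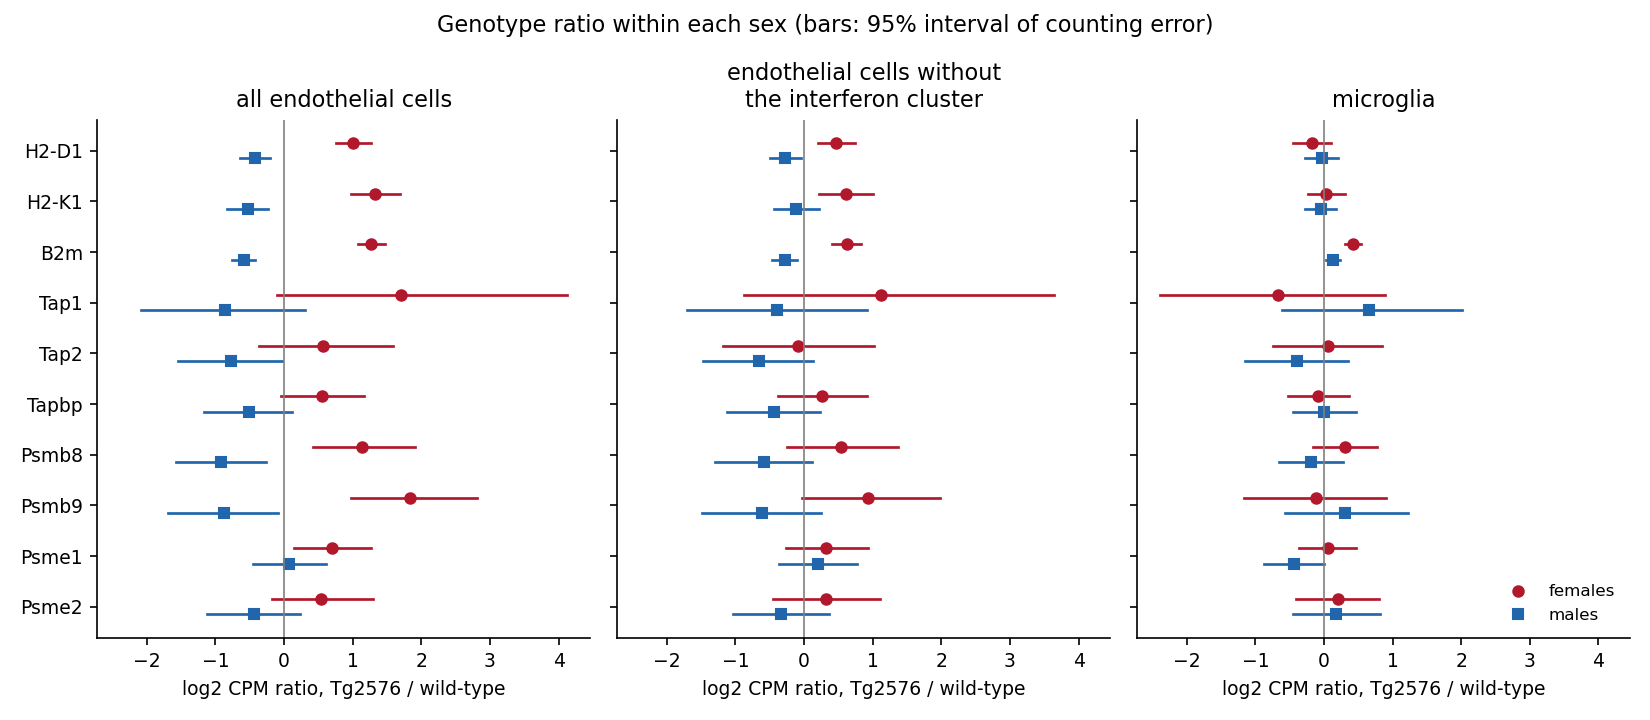
Ratio of CPM in Tg2576 to CPM in wild-type on the log2 scale (x axis), in endothelial cells with and without the interferon cluster and in microglia, with exact 95% counting intervals, for females and males. In all endothelial cells the female ratios lie above 0 for 10 of 10 genes and the male ratios below 0 for 9 of 10, while most microglial intervals cover 0.

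Part of this pattern lay in few cells. When interferon-induced genes were kept among the variable genes, and the 10 genes left out, a cluster of 58 cells led by *Gbp8*, *Gbp4*, *Tgtp2* and *Iigp1* appeared, with 0, 40, 16 and 2 cells in the female wild-type, female Tg2576, male wild-type and male Tg2576 libraries, 57 of them endothelial. *H2-D1* in these cells was at 3574 CPM in the female Tg2576 and 2708 in the male wild-type library, against 948 and 1177 in the other endothelial cells of those libraries. *B2m* was at 7575 and 6959 CPM, against 1681 and 1828. Without these cells, a choice made after seeing the data, *H2-D1* gave 0.47 (0.20 to 0.74) in females and -0.27 (-0.50 to -0.04) in males. *H2-K1* gave 0.60 (0.21 to 1.01) and -0.12 (-0.44 to 0.21), and *B2m* 0.62 (0.41 to 0.83) and -0.28 (-0.46 to -0.10). The genes at least 1.5-fold apart then numbered 4 in females (higher) and 2 in males (lower). The shares of all genes at that size, 19.7% and 14.4%, were taken only with these cells included.

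**Figure D5:**
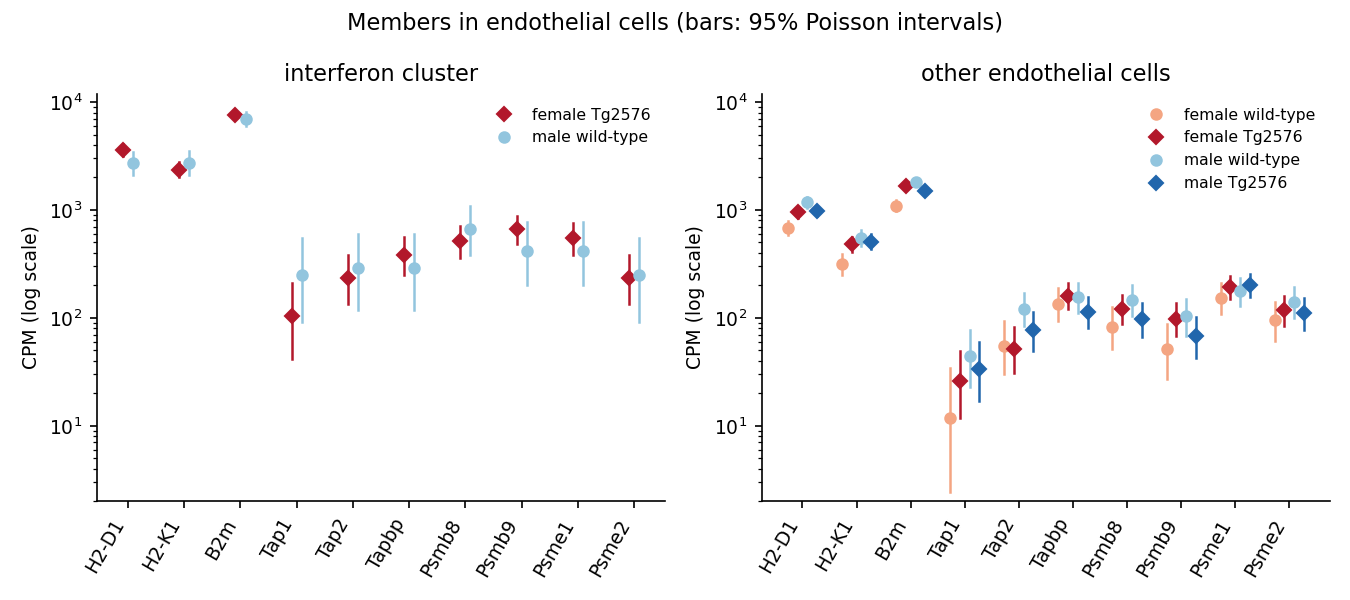
Level of the 10 genes (y axis, CPM, log scale, bars: exact 95% Poisson intervals) in the cells of the interferon cluster and in the other endothelial cells, by library. In the female Tg2576 and male wild-type libraries the levels in the cluster were above those of the other endothelial cells for all 10 genes.

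In microglia the genotypes were closer. *B2m* was 0.42 higher in Tg2576 females (0.31 to 0.53) and 0.14 higher in Tg2576 males (0.03 to 0.24), and among the other genes only the male *Psme1* interval (-0.87 to -0.01, ratio -0.44) left out 0. The medians over the 10 genes were 0.04 and -0.01, against 0.06 and 0.04 over all genes. The sexes were also compared in microglia, a comparison chosen after the values were seen. With genotype in the model, *H2-K1* was 0.59 ± 0.15 higher in males on the log2 scale (edgeR adjusted p = 0.0104) and *H2-D1* 0.53 ± 0.15 (adjusted p = 0.0234), while *B2m* at 0.38 ± 0.13 was not called (adjusted p = 0.0770). That made 2 of 9 genes tested, against 2.48% of all genes called higher in males. These calls depended on the processing: DESeq2 called neither (adjusted p = 0.215 and 0.263), nor did a mitochondrial limit of 5% (adjusted p = 0.679 and 0.519) or a minimum of 500 genes per cell. In these settings 8, 14 and 54 genes of any kind were called higher in males, against 186 in the main one. The mitochondrial share of UMIs in kept cells also differed, at 9.27%, 9.92%, 6.89% and 5.00% in the usual order, and its part in the sex difference was not tested.

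The sex difference also lay beside a difference in the kinds of microglia captured. A microglial cluster led by the cytokine genes *Ccl4*, *Ccl3* and *Il1a* made up 64.1%, 43.7%, 76.1% and 71.6% of microglia in the female wild-type, female Tg2576, male wild-type and male Tg2576 libraries. *H2-K1* in that cluster was at 442, 494, 646 and 639 CPM, and in the cluster led by *P2ry12* at 186, 252, 184 and 227 CPM. *H2-D1* was at 470, 436, 576 and 559 CPM in the former and 160, 232, 265 and 344 in the latter. *B2m* differed little between them, at 1772, 2444, 2545 and 2830 against 1846, 2361, 2946 and 3009 CPM. The part of the cluster shares in the difference between the sexes was not tested.

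In the other types the counts were small. Among astrocytes the female ratio intervals left out 0 for *B2m* (0.88), *Tap2* (2.31) and *Tapbp* (2.31), each higher in Tg2576, and no male interval did. All 7 of the genes measured in female astrocytes were above wild-type, with a median of 1.40 against 0.03 over all genes, from 4 to 34 UMIs per gene in the wild-type library. In male astrocytes 4 of 7 were above wild-type, with a median of 0.12. The astrocyte sums held the microglial marker list at 520, 1142, 1272 and 1047 CPM in the usual order. Astrocyte levels of *B2m* and *H2-D1* were below those of the barcodes taken as free RNA. The part of microglial and free RNA in the astrocyte ratios was not tested. In mural cells the male intervals left out 0 for *H2-K1* (-0.73), *B2m* (-0.84), *Psmb8* (-2.24) and *Psme1* (-1.48), each lower in Tg2576, while *H2-D1* was at 0.05 (-0.47 to 0.57). In females only the *H2-D1* interval did (-1.19). These rest on 34 to 54 mural cells per library. In oligodendrocytes (1.15) and in neuroblasts or progenitors (2.34) *B2m* was higher in Tg2576 males. Few cells carried these UMIs: a *B2m* UMI was found in 10.0% of 30 male Tg2576 neuroblasts or progenitors, against 16.7% of 30 in the wild-type, and in 8.57% of 105 male Tg2576 oligodendrocytes, against 13.0% of 77. None of these was tested within a sex.

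Across the 24 library and cell type sums, the genes whose log2 level was most like the mean of *H2-D1*, *H2-K1* and *B2m* were *Klf4* (Pearson's r = 0.96), *Grap* (0.96), *St3gal6* (0.95), *Elk3* (0.94) and *Msn* (0.94). The points share libraries and cell types, so this is a description of the pattern over types. *Klf4* encodes a transcription factor of endothelial and myeloid cells and *Msn* the cytoskeletal linker moesin.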

How the data were processed

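The authors deposited raw UMI counts, whole numbers for each gene symbol in each of 3000 barcodes per library (4 libraries), made with a Drop-seq computational workflow. The submitters' processing notes name the build mm10 and Seurat 3.1.4, and the aligner and counter are not given in the sources used here. Drop-seq reads 3′ ends, so UMI levels of different genes are not comparable per length, and multi-mapping reads of near-identical class I genes may have been lost or shared.

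Barcodes with 200 to 7000 genes and at most 20% mitochondrial UMIs were kept. A limit of 5% was tried first and raised, since at least 1 library would have lost over 50% of its barcodes. The transform was sctransform 0.4.2 (Seurat 5.3.0, R 4.3.3). Cells were clustered on 2500 variable genes and 19 principal components at a resolution of 0.5, leaving out the 10 genes, the pathway lists, mitochondrial and sex-linked genes, and clusters were named by at least 3 marker genes more than 2-fold higher than in other cells. The 92 cells that Scrublet (scanpy 1.11.5) called doublets were kept, and left out as an alternative. A pair of clusters, of 50 and 52 cells, had no name.

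For each library and type the UMIs were added up and scaled to CPM. Types with at least 20 cells in every library were tested with edgeR 4.0.16 (filterByExpr, TMM, quasi-likelihood test, Benjamini-Hochberg adjustment over all genes tested, threshold 0.05), genotype with sex as a covariate and cell types with the library as a block, and the test was tested on simulated data. DESeq2 1.42.0 was an alternative. A standard error of a log2 fold change is its size divided by the square root of the F statistic. Intervals (exact Poisson, exact Clopper-Pearson and exact conditional binomial, 95%) cover counting error only (Python 3.11.15 with numpy 2.4.6, scipy 1.17.1 and pandas 2.3.3). A gene entered the ratios within a sex with at least 10 UMIs in the 2 libraries. Likeness of pattern was Pearson's r of log2(CPM + 10). A planned contrast of macrophages with microglia could not be run as fixed, because no library held 20 macrophages.

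Genes named are all 10 members, from each pathway list genes among the 3 with the highest level or called in the genotype test, the genes that lead clusters, and the 5 genes of most similar pattern with a mean of at least 50 CPM. *H2-T3*, *Psmb5* and the sex comparison in microglia were added after their values were seen. The members and lists were chosen with earlier results of these data known. Alternatives tried were a mitochondrial limit of 5%, of 10% or no limit, a minimum of 500 genes, clustering resolutions of 0.06 and 1, other scalings, tools and filters, cells thinned to 500 UMIs, and leaving out each library.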

Additional observations from a re-analysis of the deposited data

Results flagged for a closer look

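In endothelial cells 5 genes had genotype ratios of opposite sign in the sexes, with counting intervals that left out 0 in both. On the log2 scale, Tg2576 over wild-type, *H2-D1* was at 1.01 in females and -0.42 in males, and *H2-K1* at 1.32 and -0.53. *B2m* was at 1.27 and -0.59. For the immunoproteasome subunits, *Psmb8* was at 1.13 and -0.91 and *Psmb9* at 1.84 and -0.88. With 1 library per sex and genotype the difference between the sexes was not tested. All 5 stand on the same 4 endothelial library sums, and the female wild-type sum, the lowest for each gene, also held globin UMIs at 1.01% of its total.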

How the results depend on the processing

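The counts of genes called higher in microglia and in endothelial cells than in astrocytes and oligodendrocytes were 9 or 10 under every alternative run, with sizes that moved: against astrocytes and oligodendrocytes, the endothelial log2 fold change of *Psmb9* ran from 4.71 to 6.34 and that of *H2-D1* from 4.09 to 5.11. The genotype test called 0 of the genes it could test under each alternative, which in some types and settings were few or 0. Between endothelial cells and microglia, 1 gene was called lower, which became 0 with DESeq2, 0 without the library term and 2 without the interferon cluster, a setting added after seeing the data. Leaving out each library in turn left the counts at 9, 9, 2 and 1. The 2 genes called higher in male microglia became 0 with DESeq2, 1 without the filter on low counts, 0 at a mitochondrial limit of 5%, 1 at 10% and 0 with at least 500 genes per cell. Over all genes, the number called higher went from 186 of 7495 to 8 of 7495 with DESeq2 and 136 of 20668 without the filter. It was 14 of 4544 at 5%, 193 of 7058 at 10% and 54 of 7043 with at least 500 genes. In endothelial cells, genes at least 1.5-fold apart fell from 7 to 4 in females and from 5 to 2 in males without the interferon cluster. The shares over all genes, 19.7% higher in females and 14.4% lower in males, were taken only with that cluster included. In microglia, genes above wild-type in both sexes numbered 2, and 4 at a mitochondrial limit of 10%. The causes were not tested. The endothelial ratios and most levels had no value at 5%, and mural and neuroblast or progenitor levels none at 10%, because too few cells remained in a library. No paired analysis of genotype was possible because each sex and genotype has 1 library and the labels give no replicate numbers. Depth limits *Tap1* most, with 108 UMIs in all kept cells.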

Other observations

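Over all kept cells, *H2-D1* was 0.73 higher on the log2 scale in Tg2576 females (95% interval 0.57 to 0.89) and the male ratio was -0.16 (-0.31 to -0.02). Endothelial cells made up 14.4% of kept cells in the female wild-type and 24.3% in the female Tg2576 library. In males they made up 19.6% and 20.2%. Shares of cell types and levels per cell cannot be told apart in these ratios. In a contrast added after seeing the data, macrophages were compared with microglia in a clustering repeated without the cells called doublets, which named 35, 41, 38 and 45 macrophages in the female wild-type, female Tg2576, male wild-type and male Tg2576 libraries. That group of 159 cells had a median of 468 UMIs and class II genes such as *H2-Aa* and *Cd74* among its leading genes, and was larger than the group of 32 cells named macrophages in the main clustering (median 1002.5 UMIs). By edgeR this called 219 of all 6345 genes tested higher in macrophages and 750 lower, and 0 of the 9 genes described here. *Tapbp* alone of them had an unadjusted p under 0.05 (log2 fold change -1.14 ± 0.46, adjusted p = 0.0771), while *B2m* was at -0.19 ± 0.18 (adjusted p = 0.531) and *H2-D1* at 0.05 ± 0.24 (adjusted p = 0.921).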
